A study of Mus musculus with 2 samples.

Results

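Reads of 30 mouse genes of cholesterol synthesis, uptake and SREBP control were compared between 2 RNA-seq libraries of NE4C cells, an established mouse neural stem cell line grown on poly-L-lysine. The members were the rows of the deposited table whose symbol was one of 30 names, out of 16803 genes listed. One library came from normally cultured cells (control), and the other from cells treated with HTL (homocysteine thiolactone, a reactive cyclic form of homocysteine that attaches to lysine residues of proteins). The labels name no genotype beyond the line, and how much HTL was used and for how long is not in them. The study used HTL to raise homocysteine attached to histones in these cells, and the comparison asked which transcripts differed after it. There was 1 library per condition and therefore no replicate check, so every test below compares these 2 libraries rather than the conditions, and all intervals cover counting error only.

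Cells build cholesterol from acetyl-CoA, first along the mevalonate pathway to farnesyl diphosphate, from which squalene and then sterols are made in the sterol branch. The transcription factors SREBP1 and SREBP2 (genes Srebf1 and Srebf2) switch on genes of synthesis and uptake when sterols are scarce: SCAP escorts them from the endoplasmic reticulum to the Golgi for cleavage, and the INSIG proteins hold SCAP back when sterols are plentiful. When sterols are in excess, the LXR receptors instead activate genes of cholesterol export, and developing neural tissue relies largely on its own synthesis.

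The control library held 10350665 reads and the HTL treatment library 9102076, and the 10 most abundant genes took 9.17% and 9.07% of them. A gene was tested when its reads in the 2 libraries summed to 10 or more, which held for 13442 of the 16803 genes and for all 30 members. Over the genes tested the median log2 ratio of HTL treatment over control was -0.14 on totals-scaled reads, with quartiles at -0.60 and 0.28, so that ratios near 0 lay slightly above the typical gene. Of 10 neural stem cell markers, 9 had at least 10 reads in each library, while Fabp7 had 2 reads in each. The summed level of that marker list was 604 CPM (counts-per-million, the reads of a gene scaled to the total of its library) in control and 467 CPM after HTL treatment, and its members moved apart. Sox2, a defining factor of these cells, had 894 and 285 reads, Sox1 48 and 12, Vim 1487 and 648, and Cdh2 831 and 566, while Nes had 1617 and 1365, Hes1 243 and 198, Msi1 617 and 555, Pax6 69 and 66, and Prom1 443 and 555. Summed neuron markers were at 60.6 and 65.1 CPM, a near-level sum in which Tubb3 had 296 and 396 reads while Dcx had 88 and 29, Map2 114 and 66, and Snap25 35 and 15. Astrocyte markers were at 377 and 260 CPM (nearly all of it Gja1, with Gfap at 2 and 0 reads), oligodendrocyte markers at 23.1 and 24.1 CPM, fibroblast markers at 14 and 29 CPM, immune markers at 2.71 and 2.20 CPM, and hepatocyte markers at 0.290 and 0.220 CPM, where Alb and Apoa1 never exceeded 2 reads. The part of these differences in the results was not tested, and in bulk RNA fewer cells of a type and less RNA per cell cannot be told apart.

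Promoter sequences were taken from RefSeq (GRCm38.p6) as the 250 bases before an annotated transcript start, which were on hand for 25 of the 30 members (33 windows in all). Promoters of Fdps, Fdft1, Sqle, Stard4 and Npc1 were not analysed here. Shown first are the windows of Cyp51, Msmo1 and Tm7sf2, which had the highest log2 ratios of HTL treatment over control, and of Hsd17b7, which had the lowest. They lie at chr5:4104698-4104947, chr8:64733579-64733828, chr19:6067851-6068100 and chr1:169969206-169969455, all on the minus strand. Hmgcs1 (chr13:119690101-119690350, plus strand) was added after the search because it held a complete sterol regulatory element, the sequence that SREBP binds. Capitals mark matches, on either strand, to the sterol element (CACCCCAC or TCACNCCAC, which overlap in Hmgcs1), to CCAAT, the box bound by NF-Y, or to the E-box CACGTG, and all windows are written 5′ to 3′ on the strand of the gene.
Cyp51: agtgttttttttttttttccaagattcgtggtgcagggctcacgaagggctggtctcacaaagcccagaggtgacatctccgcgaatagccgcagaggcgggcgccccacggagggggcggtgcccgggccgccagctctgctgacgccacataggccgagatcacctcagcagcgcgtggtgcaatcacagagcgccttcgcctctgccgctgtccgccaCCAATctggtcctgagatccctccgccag
Msmo1: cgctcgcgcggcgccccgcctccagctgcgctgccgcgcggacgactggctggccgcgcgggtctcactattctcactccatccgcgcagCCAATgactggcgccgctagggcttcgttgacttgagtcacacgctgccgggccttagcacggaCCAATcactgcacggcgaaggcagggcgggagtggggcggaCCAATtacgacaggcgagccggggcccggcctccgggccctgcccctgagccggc
Tm7sf2: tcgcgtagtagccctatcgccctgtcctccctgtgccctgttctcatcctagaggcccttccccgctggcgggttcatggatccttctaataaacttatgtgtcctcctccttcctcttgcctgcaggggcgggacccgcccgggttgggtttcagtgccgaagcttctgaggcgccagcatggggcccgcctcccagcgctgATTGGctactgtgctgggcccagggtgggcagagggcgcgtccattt
Hsd17b7: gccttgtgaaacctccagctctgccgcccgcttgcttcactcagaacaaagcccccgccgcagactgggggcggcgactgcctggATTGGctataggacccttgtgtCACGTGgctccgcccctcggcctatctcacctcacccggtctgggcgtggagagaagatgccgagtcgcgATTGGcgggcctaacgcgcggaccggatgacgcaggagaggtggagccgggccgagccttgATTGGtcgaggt
Hmgcs1: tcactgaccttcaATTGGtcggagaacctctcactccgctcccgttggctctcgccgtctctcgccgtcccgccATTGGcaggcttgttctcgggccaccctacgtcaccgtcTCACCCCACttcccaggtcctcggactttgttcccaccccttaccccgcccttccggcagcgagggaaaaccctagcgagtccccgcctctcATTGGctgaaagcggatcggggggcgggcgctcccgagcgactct

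The CCAAT box was found in 22 of the 33 member windows (66.7%) and in 33.8% of all 32851 RefSeq windows of this length, and 21 of the 25 members had it in at least 1 window. Each of the 5 printed windows held it, with 1 match in Cyp51 and Tm7sf2 and 3 matches in Msmo1, Hsd17b7 and Hmgcs1. The sterol element CACCCCAC was found in 6.06% of member windows and 2.58% of all windows, in Acat2 and Hmgcs1. Its longer form TCACNCCAC was in Hmgcs1 alone among the members (3.03% of member windows and 1.05% of all), at positions -137 to -129 from the start. An E-box was present in Abca1, Dhcr7, Hsd17b7, Insig1, Sc5d and Scap (18.2% of member windows, 6.02% of all). Neither the cyclic AMP element TGACGTCA nor the LXR repeat DR4 was in a member window, and they were in 1.55% and 0.0152% of all windows. All members were genes tested, and over the 13553 windows of genes tested some shares differed. They were 35.6% for CCAAT, 2.91% for CACCCCAC, 1.03% for TCACNCCAC, 8.21% for the E-box, 2.52% for TGACGTCA and 0 for DR4. A match is a description of letters and not of a binding site, and a window without a match says only that these letters are not in it. Hsd17b7, the member with the lowest ratio, held the CCAAT box and the E-box, as did members with higher reads, such as Sc5d in the same window and Dhcr7 in separate windows.

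Most of the synthesis genes had more reads after HTL treatment, and no member fell by the full criteria. The sterol branch held the largest rises, with Cyp51 at 5.24-fold, Msmo1 and Tm7sf2, and the mevalonate pathway added Fdps. A gene was called when the exact binomial test of its reads against the library totals gave an adjusted p of at most 0.001 (Benjamini-Hochberg over all genes tested) and its log2 ratio was at least 1 in size. By this rule 4 of 30 members were called higher and 0 lower, where 2.81% of all genes tested were called higher and 7.98% lower. By the adjusted p alone, 19 members were higher, 2 were lower and 9 did not pass, where 14.5% of all genes were higher and 24.1% lower. These shares over all genes are also the ones to set beside the counts of each group of members below. A ratio below 0 was seen in 4 of 30, namely Mvk, Hsd17b7, Scap and Nr1h2. The median log2 ratio of the members was 0.68, with a range of -0.74 to 2.39, and 27 members lay above the median gene and 20 above the upper quartile of all genes. Together the 30 genes took 14999 control reads and 23443 HTL treatment reads, or 1449.1 and 2575.6 CPM, a log2 ratio of 0.83 (95% interval 0.80 to 0.86).

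**Figure D1:**
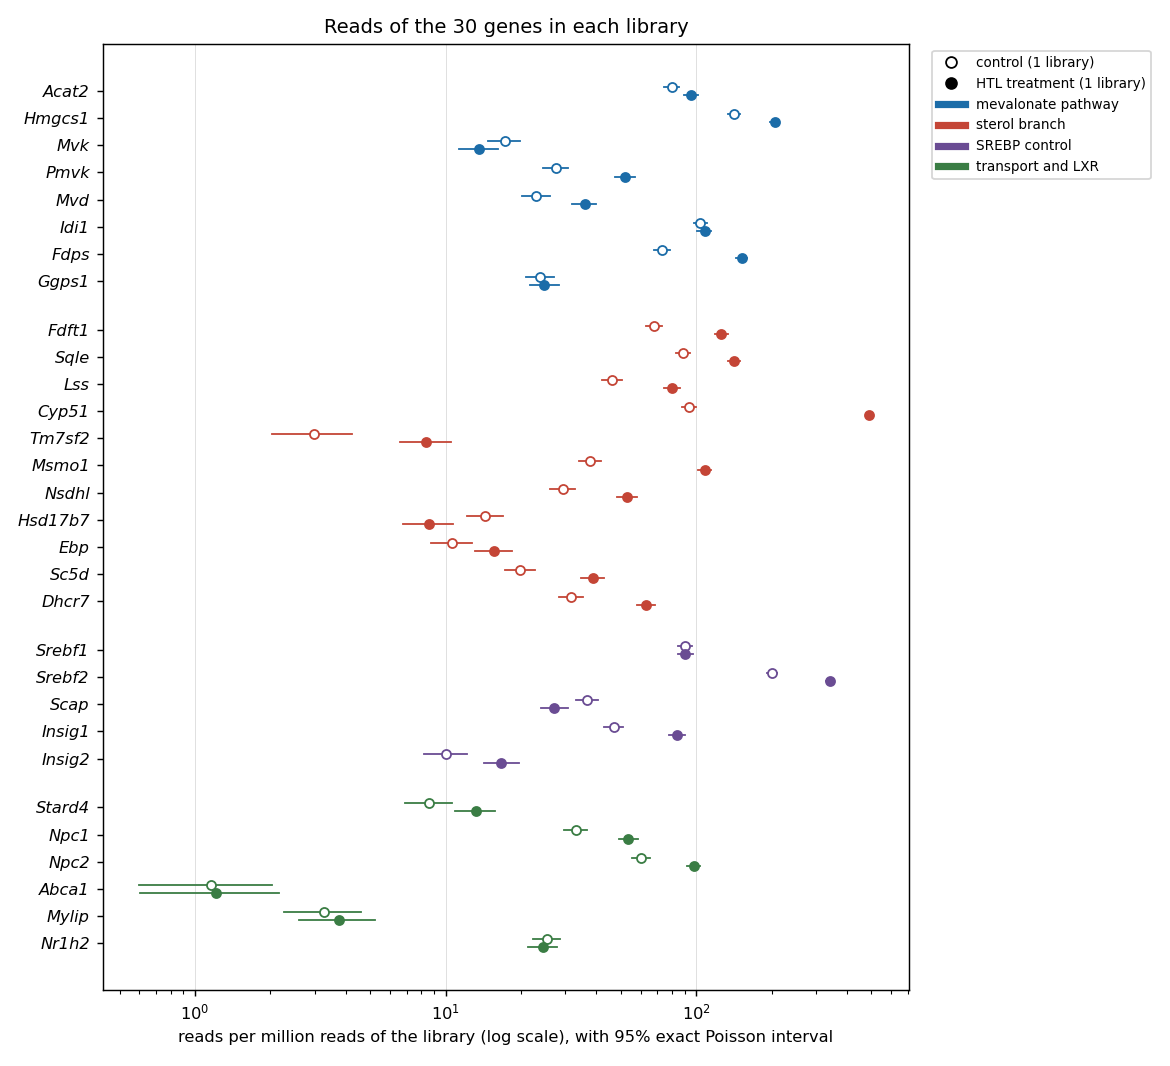
Level in CPM of each of the 30 genes (log axis) in the control library (open points) and the HTL treatment library (filled points), with 95% exact Poisson intervals and coloured by role. Cyp51 moved from 93.6 to 491 CPM, while the intervals of Mvk, Idi1, Ggps1, Srebf1, Abca1, Mylip and Nr1h2 overlap between the libraries.

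Along the mevalonate pathway, Acat2, Hmgcs1, Mvk, Pmvk, Mvd, Idi1, Fdps and Ggps1 were followed in the order of their steps. Of these 8 genes, 1 was called higher and 5 were higher by the adjusted p alone, with 0 lower and a median log2 ratio of 0.40. Fdps, farnesyl diphosphate synthase, makes the branch point metabolite. It had 755 control reads and 1380 HTL treatment reads (72.9 and 152 CPM). Its intervals did not overlap, the log2 ratio was 1.06 (0.93 to 1.19), and it was the 1 called gene of the group (exact binomial test, adjusted p = 3.57e-60). Fdps (gene 110196) lies on the minus strand at 88897514 to 88905881 of chromosome 3 in NCBIM37, the assembly also named mm9.

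Pmvk, phosphomevalonate kinase, had 285 and 473 reads, higher after HTL treatment by 0.92 on the log2 scale (0.70 to 1.13). Mvd, the decarboxylase that closes the kinase steps, had 238 and 327 reads, for a log2 ratio of 0.64 (0.40 to 0.89). Hmgcs1, the cytosolic HMG-CoA synthase with the sterol element printed above, had 1462 and 1874 reads, a ratio of 0.54 (0.44 to 0.64). All 3 passed the adjusted p and stayed under the fold criterion (exact binomial test, adjusted p = 5.90e-17 for Pmvk, 6.08e-07 for Mvd and 3.01e-26 for Hmgcs1). Acat2, which joins acetyl-CoA units at the entry of the pathway, had 826 and 868 reads, for a log2 ratio of 0.26 (0.12 to 0.40), and it passed by the exact binomial test with an adjusted p of 0.000687. Its near copy Acat3 had 868 and 646 reads, and RSEM may divide reads between such copies. With the rows of Acat2 and Acat3 added together, a step chosen after seeing the data, the reads were 1694 and 1514 and the log2 ratio of the sum 0.023 (-0.078 to 0.12). How the reads were divided between these copies was not tested.

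Mvk, Idi1 and Ggps1 did not pass. Mvk, mevalonate kinase, had 178 control and 124 HTL treatment reads, a log2 ratio of -0.33 (-0.68 to 0.0028). Idi1, the isomerase of isopentenyl diphosphate, had 1074 and 983 reads, a ratio of 0.058 (-0.069 to 0.18), so a change of the size seen in Fdps lay outside its counting interval. Ggps1, which extends farnesyl diphosphate for protein prenylation rather than for sterols, had 247 and 226 reads, a ratio of 0.057 (-0.21 to 0.32).

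In the sterol branch, which runs from squalene to cholesterol, 3 of 11 genes were called higher and 9 were higher by the adjusted p alone, 1 was lower and 1 did not pass. The median log2 ratio was 0.89, and the summed level went from 443 to 1135.2 CPM, a log2 ratio of 1.36 (1.31 to 1.41). The steps that demethylate and reduce lanosterol held the 3 called genes, Cyp51, Msmo1 and Tm7sf2.

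Cyp51, the cytochrome P450 that removes the first methyl group of lanosterol, had 969 control reads and 4470 HTL treatment reads. The HTL treatment library was far above the control library, at 491 CPM (477 to 506) against 93.6 CPM (87.8 to 99.7), with no overlap. Its log2 ratio of 2.39 (2.29 to 2.49) ranked 55 among the 13442 genes tested, counted from the highest, and its p in the exact binomial test was too small for the software to write as anything but 0. Cyp51 (gene 13121) lies on the minus strand of chromosome 5 at 4081145 to 4104746 in NCBIM37, and no exon of another gene overlaps it there. Of the summed rise of 890 CPM over the 19 synthesis enzymes (mevalonate pathway and sterol branch together), 397 CPM or 44.7% was Cyp51. The 19 enzymes together went from 933 to 1822.4 CPM, a log2 ratio of 0.97. Without Cyp51 the other 18 went from 839 to 1331.3 CPM, a log2 ratio of 0.67 (0.63 to 0.71), and their median was 0.74 in place of 0.80.

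Msmo1, the methylsterol monooxygenase that acts after Cyp51, had 390 and 985 reads. It was at 37.7 CPM (34.0 to 41.6) in control and 108 CPM (102 to 115) after HTL treatment, without overlap, a log2 ratio of 1.52 (1.35 to 1.69; exact binomial test, adjusted p = 5.76e-76). The NCBIM37 annotation lists Msmo1 (gene 66234) under the older name Sc4mol, on the minus strand of chromosome 8 at 67196936 to 67212589. Tm7sf2, a sterol reductase of the endoplasmic reticulum membrane, had the fewest reads of the called genes, 31 and 76. Its levels were 2.99 CPM (2.03 to 4.25) and 8.35 CPM (6.58 to 10.5), still apart, and the log2 ratio of 1.46 had a wide interval of 0.86 to 2.13 (exact binomial test, adjusted p = 1.84e-06). Tm7sf2 (gene 73166) lies on the minus strand of chromosome 19 at 6062821 to 6068373, where its exons overlap 1110014N23Rik on the same strand, so the reads of these genes may have been divided between them.

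Nsdhl, the sterol dehydrogenase that follows Msmo1, had 304 and 483 reads, for a log2 ratio of 0.85 (0.64 to 1.07). Hsd17b7, the ketoreductase of the same demethylation cycle, went the other way, with 149 control reads and 78 HTL treatment reads. At 14.4 CPM (12.2 to 16.9) and 8.57 CPM (6.77 to 10.7) its intervals did not overlap, and the log2 ratio was -0.74 (-1.16 to -0.34). Its adjusted p by the exact binomial test was 0.000497 with the library totals, but 0.00474, 0.00480 and 0.00254 with scaling by TMM, by median of ratios and by upper quartile, so it passed with the library totals and not with those 3. Hsd17b7 (gene 15490) lies on the minus strand of chromosome 1 at 171879666 to 171899372 in NCBIM37.

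The first steps of the branch were all higher after HTL treatment. Fdft1, squalene synthase, had 703 and 1147 reads, for a log2 ratio of 0.89 (0.76 to 1.03). Sqle, squalene epoxidase, had 920 and 1293 reads and a ratio of 0.68 (0.55 to 0.80). Lss, which closes the ring to give lanosterol, had 479 and 732 reads and a ratio of 0.80 (0.63 to 0.97). All 3 rose by the adjusted p alone (exact binomial test, 4.71e-38, 8.73e-27 and 2.15e-20), and their intervals place them under Cyp51 and Msmo1.

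At the end of the branch, Sc5d, the desaturase of the sterol ring, had 205 and 353 reads, for a log2 ratio of 0.97 (0.72 to 1.22). Dhcr7, the reductase whose loss causes Smith-Lemli-Opitz syndrome in humans, had 327 and 574 reads and a ratio of 0.996 (0.80 to 1.20). Dhcr7 and Sc5d passed the adjusted p (exact binomial test, 2.93e-23 and 4.85e-14) and lay just under the fold criterion, so their calls turned on the scaling: both were called with each of the 3 other scalings. Ebp, the sterol isomerase, had 110 and 142 reads and a ratio of 0.55 (0.18 to 0.93), with an adjusted p of 0.00546 in the exact binomial test. Ebp therefore did not pass with the library totals, although it did with TMM and median of ratios scaling.

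**Figure D2:**
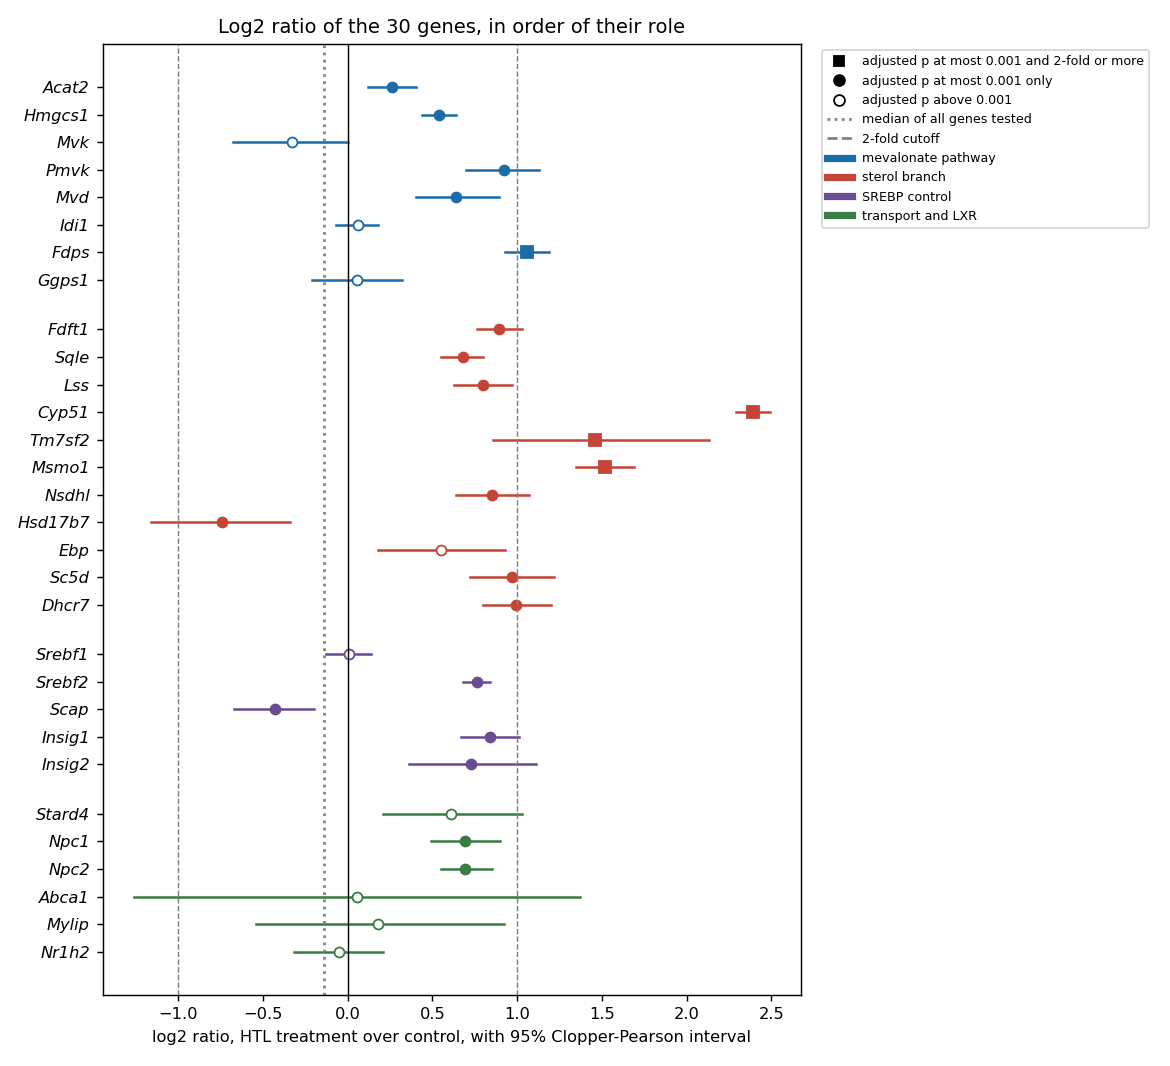
Log2 ratio of HTL treatment over control for each of the 30 genes, with 95% exact binomial intervals, grouped and coloured by role. Cyp51 (2.39), Msmo1 (1.52), Tm7sf2 (1.46) and Fdps (1.06) are called higher, and Hsd17b7 (-0.74) has the lowest ratio.

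Among the 5 SREBP control genes 0 were called, while 3 were higher and 1 lower by the adjusted p alone, with a median log2 ratio of 0.73. Srebf2, whose product chiefly drives cholesterol synthesis, had 2079 control reads and 3103 HTL treatment reads (201 and 341 CPM). It was higher after HTL treatment, by 0.76 on the log2 scale (0.68 to 0.84; exact binomial test, adjusted p = 8.09e-78). Srebf1, whose product acts more on fatty acid genes, had 933 and 823 reads, and its log2 ratio of 0.0045 had an interval of -0.13 to 0.14. Measured per transcript length in FPKM, Srebf2 stood 2.12 times above Srebf1 in control and 3.59 times above it after HTL treatment.

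Insig1 and Insig2, which retain SCAP in the endoplasmic reticulum, were both higher after HTL treatment. Insig1, itself a known target of SREBP, had 485 and 763 reads, for a log2 ratio of 0.84 (0.67 to 1.01). Insig2 had 104 and 152 reads, a ratio of 0.73 (0.36 to 1.11). Both passed by the exact binomial test (adjusted p = 4.35e-23 and 0.000168), their intervals overlap each other, and Insig1 was 4.32 times above Insig2 in FPKM in control and 4.65 times above it after treatment. Scap, the escort itself, had 380 control reads and 248 HTL treatment reads and a log2 ratio of -0.43 (-0.67 to -0.20). Its adjusted p by the exact binomial test was 0.000711, but 0.0224, 0.0248 and 0.00943 with scaling by TMM, by median of ratios and by upper quartile, so that, like Hsd17b7, it passed with the library totals and not with those 3. The proteases that release SREBP, named here after their values were seen, are Mbtps1, with 2001 and 1655 reads and a ratio of -0.088 (-0.18 to 0.0062), and Mbtps2, with 223 and 101 reads and a ratio of -0.95 (-1.31 to -0.61).

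Of the 6 genes of cholesterol transport and LXR control, 0 were called, 2 were higher by the adjusted p alone and 4 did not pass, with a median log2 ratio of 0.40, which became 0.61 with the length correction described below and 0.65 over the 4 genes that averaged 50 reads or more. Npc1 and Npc2 pass cholesterol out of the lysosome and are mutated in Niemann-Pick disease type C. Npc1 had 343 and 488 reads, and Npc2 had 625 and 890. Both log2 ratios were 0.69 (0.49 to 0.90 for Npc1, 0.55 to 0.85 for Npc2; exact binomial test, adjusted p = 3.55e-11 and 1.29e-19), and Npc2 stood 2.91 times above Npc1 in FPKM in both libraries. Stard4, a soluble sterol carrier, had 89 and 120 reads and a ratio of 0.61 (0.21 to 1.03), short of the threshold at an adjusted p of 0.00508 by the exact binomial test. Like Ebp, it passed with TMM and median of ratios scaling (0.000576 and 0.000566).

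The members tied to LXR, namely Abca1, Mylip and Nr1h2, did not pass, and other LXR genes are counted only within a related list below. Abca1, the cholesterol exporter and a classic LXR target, had 12 and 11 reads, a log2 ratio of 0.057 with an interval of -1.26 to 1.37. Mylip, the LXR-induced ubiquitin ligase that degrades lipoprotein receptors, had 34 reads in each library, a ratio of 0.18 (-0.54 to 0.92). Both intervals are wide enough to hold the change seen in Npc1, so the reads cannot tell such a change from none. Nr1h2, which encodes LXR beta, had 263 and 223 reads, a ratio of -0.052 (-0.32 to 0.21), and its sign turned with each of the 3 other scalings.

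By level per transcript length, the members spanned 0.110 FPKM (Abca1) to 58.0 FPKM (Fdps) in control, with a median of 12.9 FPKM where all genes tested had 7.13 FPKM. In control the order from the top was Fdps, Srebf2 (43.5 FPKM), Hmgcs1 (39.8 FPKM), Acat2 (38.5 FPKM) and Idi1 (35.8 FPKM). After HTL treatment it was Fdps (121 FPKM), Cyp51 (112 FPKM), Srebf2 (73.8 FPKM), Msmo1 (59.4 FPKM) and Hmgcs1 (57.9 FPKM), with a median of 20.5 FPKM where all genes had 6.14 FPKM. Cyp51 and Msmo1, at 21.3 and 20.7 FPKM in control, were thus in the upper 5 members after treatment and not before it. With 1 library per condition no spread can be set beside the neighbours in these orders.

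**Figure D3:**
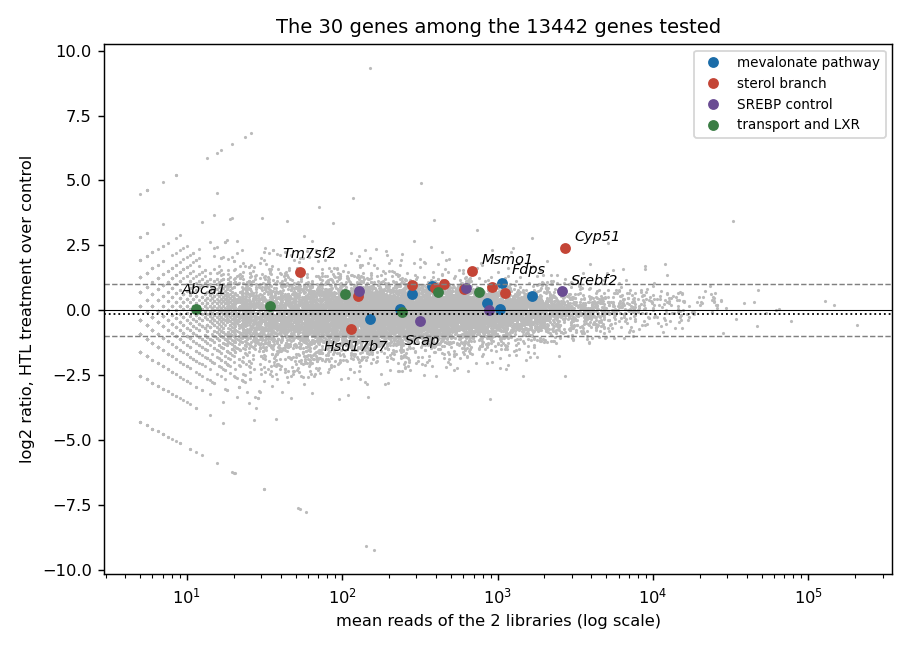
Log2 ratio of HTL treatment over control against the mean reads of the 2 libraries (log axis) for the 13442 genes tested (grey) and the 30 genes (coloured by role); dashed lines mark the fold criterion at 1 in either direction and the dotted line the median gene at -0.14. Of the 30 points 27 lie above the dotted line, and Cyp51 stands apart from the other members at its read depth.

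Related genes outside the 30 were counted in 3 lists for comparison. Over all genes tested, 2.81% were called higher and 7.98% lower, and by the adjusted p alone 14.5% were higher and 24.1% lower. Of 40 tested genes of cholesterol uptake, efflux, storage and SREBP processing, 0 were called higher and 2 lower, 12 were higher and 9 lower by the adjusted p alone, and the median log2 ratio was 0.15. These calls turned to 3 higher and 1 lower with the length correction, and to 1 higher and 2 lower with each of the 3 other scalings. The called genes were Rnf145, a sterol-responsive ubiquitin ligase, with 1709 and 579 reads (-1.38, interval -1.51 to -1.24), and Ncor1, a nuclear receptor corepressor, with 3488 and 1267 reads (-1.28, interval -1.37 to -1.18). Ncor1, at 8067 bases, lay in the longest length decile (median -0.38) and lost its call with the length correction. Of 15 non-sterol isoprenoid genes, which use the same mevalonate products for dolichol, ubiquinone and prenylation, 0 were called higher and 1 lower, with 3 in each direction by the adjusted p alone and a median of 0.042. The lower gene was Dolk, dolichol kinase, with 90 and 26 reads (-1.59, interval -2.30 to -0.96). Of 20 tested fatty acid and other SREBP1 target genes, 1 was called higher and 0 lower, with 6 higher and 3 lower by the adjusted p alone and a median of 0.067. It was Scd1, the stearoyl-CoA desaturase, with 1450 and 2718 reads (1.09, interval 0.999 to 1.18). The medians of these 3 lists lay between that of all genes (-0.14) and that of the members (0.68), and whether the lists differ was not tested.

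**Figure D4:**
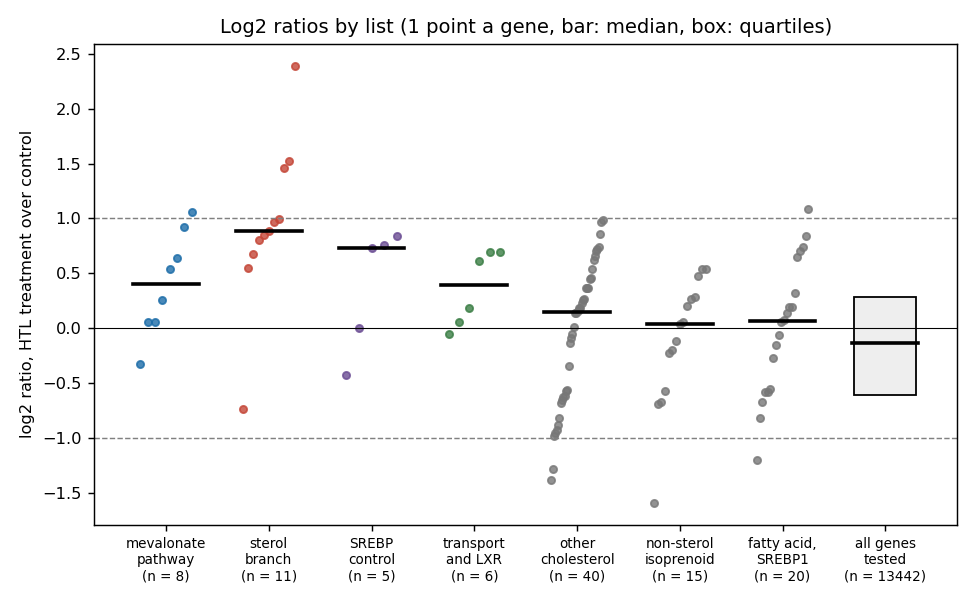
Log2 ratio of HTL treatment over control for each gene of the 4 member groups and the 3 related lists, 1 point per gene, with the median of each list as a bar. The sterol branch has the highest median, at 0.89, and the 3 related lists sit between 0.042 and 0.15.

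Log2 ratios over all genes moved with transcript length, from a median of 0.14 in the shortest decile (up to 1180 bases) to -0.38 in the longest (6190 bases and more), so the members' lengths were set beside their ratios. Cyp51, at 4353 bases, lay in the eighth decile, whose median was -0.20, together with Hsd17b7, Scap, Srebf1 and Srebf2. Fdps, Pmvk and Tm7sf2 lay in the second decile (median -0.019). With the median of its decile subtracted from each ratio, 8 members were called higher and 0 lower, where 3.82% of all genes were called higher and 5.77% lower. The 8 were the 4 called genes with Dhcr7, Fdft1, Lss and Sc5d. The part of length in the ratios was not tested further.

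**Figure D5:**
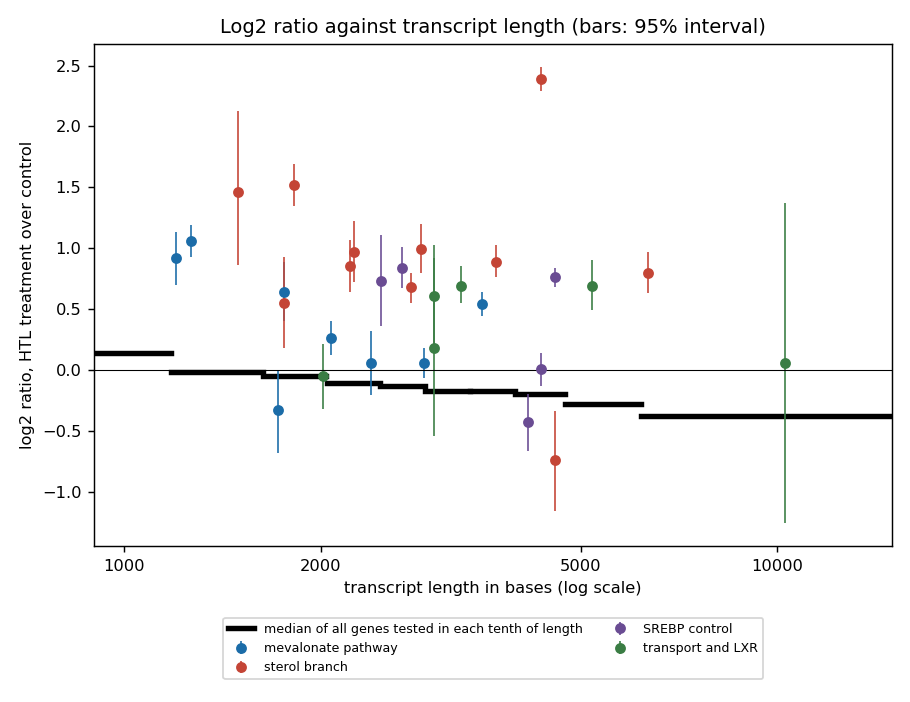
Log2 ratio of HTL treatment over control against transcript length in bases (log axis) for the 30 genes, coloured by role with 95% exact binomial intervals, with black bars at the median of all genes tested in each decile of length. The bars fall from 0.14 to -0.38, and Cyp51 lies at 2.39 where the median is -0.20.

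How many members were called depended on the scaling and on the spread assumed between cultures. With TMM scaling 8 members were called higher and 0 lower, the added genes being Dhcr7, Fdft1, Pmvk and Sc5d, where 4.11% of all genes were called higher and 5.95% lower. When edgeR's exact test was run as if cultures of 1 condition varied with a coefficient of 0.1, the same 4 genes, Cyp51, Fdps, Msmo1 and Tm7sf2, were called. Of all genes tested, 2.20% were then called higher and 6.18% lower. By the adjusted p alone, 8 members were then higher and 0 lower, in place of 19 and 2. Over all 13442 genes tested, 381 were then higher by it, in place of 1955. Among members that no longer passed in edgeR's exact test were Srebf2 (adjusted p = 0.00225), Sqle (0.00959), Mvd (0.0330) and Hmgcs1 (0.0406). With 0.2 Cyp51 was the 1 member left by either criterion, and with 0.4 there was 0. The share of all genes called higher was 0.283% with 0.2 and 0.00744% with 0.4.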

How the data were processed

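Total RNA of NE4C cells was profiled in 1 control and 1 HTL treatment library, grouped by their titles. Per the labels, libraries were made with the Illumina TruSeq kit and sequenced on BGISEQ-500. Reads were mapped by the authors to mouse genome and gene references, and RSEM was then run for quantification, according to the methods of the study; the submitters' processing notes name mm9. The mapper, the software versions, the annotation release and any use of strand in counting are not given in the sources used here. The authors deposited 1 table. The deposited values per gene include estimated counts, which the authors made with RSEM and did not normalize, and of these 21.8% of control and 20.2% of HTL treatment values were fractional, including those of 7 members. In the deposited FPKM values the authors had divided by transcript length and library size, and the lowest was 0.01. The authors' deposited log2 ratio, p-value and FDR columns compare the libraries and were not used.

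Estimated counts were rounded to whole reads. Each gene whose reads summed to 10 or more over both libraries (13442 of 16803) was tested with a two-sided exact conditional binomial test against the library totals, and p-values were adjusted by Benjamini-Hochberg. The cutoffs of the study, 0.001 for the adjusted p and 1 for the size of the log2 ratio, defined a called gene. Log2 ratios were taken after adding 0.5 read, scaled to the totals. Intervals are 95% Clopper-Pearson for ratios and 95% exact Poisson for CPM, and they cover counting error only, since reads amplified by PCR and lacking molecular identifiers do not count molecules independently. A level of 3 reads, the limit that a count of 0 allows, equals 0.290 CPM in control and 0.330 CPM in HTL treatment. edgeR's quasi-likelihood test and DESeq2 need replicates and could not be fitted. The procedure was tested on simulated data. Scripts used Python 3.11.15, numpy 2.4.6, pandas 2.3.3, scipy 1.17.1, matplotlib 3.10.9, R 4.3.3, edgeR 4.0.16 and DESeq2 1.42.0. Gene positions are from the NCBIM37 annotation, in which 29 members were matched and in which exons of 7 overlap another gene. Matching went from the gene number to its Ensembl identifier, and by symbol or synonym where that identifier was not in the annotation. Promoter windows came from the RefSeq table of GRCm38.p6, and no coordinates were converted between builds.

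The members and lists were chosen with earlier results of these data known. Every member is named. From each of the 3 related lists, the 3 largest called rises and the 3 largest called falls were to be named, which left 4 genes. Promoters were shown for the 4 largest called rises and the lowest member with a mean of at least 100 reads, where a window was given. Alternatives were 3 other scalings, other filters and cutoffs, 5 reads added, FPKM ratios, assumed variation between cultures, a correction for length and the summing of related rows.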

Additional observations from a re-analysis of the deposited data

How the results depend on the processing

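No paired analysis was possible because a single library stood for each condition, and for the same reason no library could be left out. Against 4 members called with the library totals, 8 were called with TMM scaling, 8 with median of ratios, 7 with upper quartile scaling and 8 with the length correction, while the share of all genes called higher went from 2.81% to 4.11%, 4.16%, 3.70% and 3.82%. Of the mevalonate pathway 1 was called, and 2, 2 and 2 with the 3 scalings in that order. Of the sterol branch 3 were called, and 6, 6 and 5 with the scalings and 7 with the length correction. These scalings raised every log2 ratio alike, bringing the median of all genes from -0.14 to -0.0076, -0.0011 and -0.044, and the share of lower calls among all calls from 73.9% to 59.2%, 58.5% and 63.3%. The median of the mevalonate pathway went from 0.40 to 0.53 (TMM), 0.54 (median of ratios) and 0.53 (length correction), and that of the sterol branch from 0.89 to 1.08 (length correction). Nr1h2 turned from -0.052 to 0.077, 0.084 and 0.041 with the same 3 scalings, never past the threshold. Without a cutoff on the ratio, 21 members passed, with 5 in the mevalonate pathway, 10 in the sterol branch, 4 in SREBP control and 2 in transport and LXR, beside 21 other cholesterol, 6 isoprenoid and 9 fatty acid genes and 5195 in the whole table. With a cutoff of 0.58 these counts were 18, 3, 10, 3, 2, 16, 2, 7 and 3196. With a coefficient of variation of 0.2 assumed between cultures, 1 member was called, 0 in the mevalonate pathway, 1 in the sterol branch and 0 in each related list, and 120 genes of the whole table; with 0.4 the count was 0 for the members, both synthesis groups and each related list, and 6 for the whole table. With the length correction 4 other cholesterol genes (3 higher, 1 lower) and 2 fatty acid genes were called, in place of 2 (both lower) and 1. An adjusted p of 0.05 gave 2 fatty acid genes, and the ratio of FPKM + 1 gave 816 genes of the whole table in place of 1450. Over the 30 members and 16 alternatives, 422 of 478 log2 ratios kept direction and side of the combined p and fold criteria, 46 came to pass them, 7 ceased to pass and 3 turned. The rule on orthology and protein match summed 0 rows with a member, and the sum of Acat2 and Acat3 was added after seeing the data. What else set these differences was not tested.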
